A study of Oryza sativa with 6 samples.

Results

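The genes described here make the strigolactone and karrikin pathways of rice (Oryza sativa), followed between the end of the night and the end of the day. The group consists of 7 loci set by identifier and not by any measured value, although earlier results of these data were known. Those for synthesis are D27 (LOC_Os11g37650), D17 (LOC_Os04g46470) and D10 (LOC_Os01g54270). The others are the receptors D14 (LOC_Os03g10620) and D14L (LOC_Os03g32270), the F-box gene D3 (LOC_Os06g06050) and the repressor D53 (LOC_Os11g01330). Of these 7, 6 were found among the 55801 loci of the count tables, and D27, which encodes the carotene isomerase at the head of the pathway, was not analysed here. All plants were of the Nipponbare genotype, with no mutation or treatment named, and were raised at 28 °C on Chu's medium with light and darkness of 12 h each. Harvest of the AM group (n = 3) fell 30 min ahead of lights-on. The PM group (n = 3) was harvested 30 min ahead of lights-off. The groups thus differ in time of day and in being taken in darkness or in light, which cannot be told apart. The labels state no other difference. Whole seedlings were the stated material, although an organ entry reads panicle. Nothing states that the replicates were separate plants, so p-values reflect only how far these samples differ among themselves, and that spread may be technical.

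Strigolactones are plant hormones made from carotenoids. In rice they limit the outgrowth of tillers, and roots release them as signals to symbiotic fungi. D27, D17 and D10 act in that order to turn beta-carotene into carlactone, the precursor of the hormones. The receptor D14 binds the hormone and joins D3, which is part of a ubiquitin ligase, and D53 is then degraded, which lifts repression from its targets. D14L, known as KAI2 in Arabidopsis, senses karrikins from smoke, works through the same D3 and is needed in rice for symbiosis with arbuscular fungi.

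Gene counts came to between 13.0 M and 66.7 M per library. AM replicates 1, 2 and 3 had 22.3 M, 66.7 M and 36.1 M. PM replicates 1, 2 and 3 had 20.4 M, 13.0 M and 41.7 M. Root markers were sparse: 3 of 7 had no count in any library, among them LSI2 and NRT2.1, and their summed level ran from 16.9 to 30.6 CPM in AM and from 6.76 to 7.75 CPM in PM, most of it from LSI1. Of 10 floral organ genes, 2 had no count, MADS8 and MADS13, and the sum ran from 6.89 to 9.18 CPM in AM and from 4.43 to 5.66 CPM in PM. MADS16 went from a mean of 5.33 to 1.30 CPM and was called lower, while MADS58 was called higher (log2 1.69) and 3 others were tested and not called; both were named after their values were seen. Of 3 markers of shoot meristems and axillary buds, OSH1 and LAX1 had no count, and the sum, which came from the remaining locus, ran from 2.01 to 5.23 CPM in AM and from 1.22 to 1.67 CPM in PM. CPM here are counts scaled to a common library size with TMM, the trimmed mean of M-values, a factor that centres most loci on no change. In bulk RNA of this kind, fewer cells of a type and less RNA per cell cannot be told apart.

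Transcripts of the receptor D14 and of D3 were not called different between the ends of night and day, while those of a synthesis enzyme and of the repressor were lower in PM. Of the 6 loci, 4 had enough counts to test, and 2 of those 4 were called lower in PM, 0 higher and 2 not called (edgeR quasi-likelihood test, Benjamini-Hochberg adjusted over 20548 loci at 0.05). Across all tested loci 55.9% were called, 28.0% higher and 28.0% lower, so 2 of 4 is close to the share of the whole table. The median log2 fold change of the 4 was −0.28, beside −0.006 over all tested loci. The groups had no overlap at 2 of the 4, against 64.1% of all tested loci. Both calls depended on how libraries were scaled, as given with each gene.

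**Figure D1:**
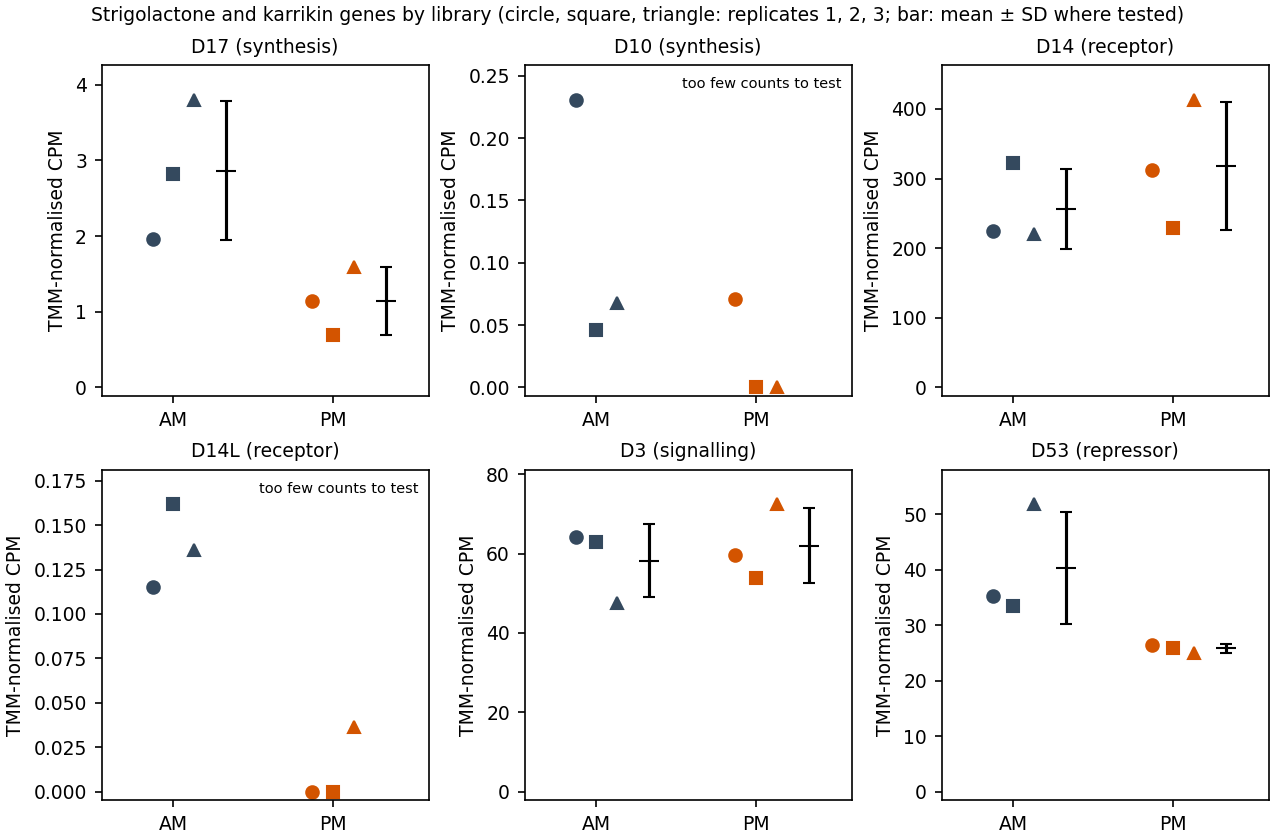
Level of each member in every library, as TMM-normalised CPM on axes that start at about 0; circles, squares and triangles are replicates 1, 2 and 3, and bars give the mean ± SD of the tested members. D17 and D53 are lower in all PM libraries than in any AM library, D14 and D3 overlap, and D10 and D14L lie under 0.25 CPM throughout.

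Of the synthesis genes, D17 fell between the end of the night and the end of the day and D10 was barely detected. D17, also called HTD1, encodes carotenoid cleavage dioxygenase CCD7, which cuts the isomerised carotene made by D27. It drew 34, 122 and 112 counts in AM replicates 1, 2 and 3, and 32, 12 and 87 in PM replicates 1, 2 and 3. Scaled for depth these were 1.96, 2.82 and 3.80 CPM in AM and 1.14, 0.690 and 1.59 CPM in PM. Each PM library was lower than the lowest AM library, and AM replicate 3 stood highest. The means were 2.86 ± 0.921 and 1.14 ± 0.450 CPM (SD, n = 3), a log2 fold change of PM over AM of −1.30 (SE 0.40, 95% interval −2.22 to −0.38; edgeR adjusted p = 0.0233). In PM the level was thus 0.407 of that in AM.

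The D17 call was not held by every library. It was lost without AM replicate 2 (−1.31, edgeR adjusted p = 0.054), AM replicate 3 (−1.04, adjusted p = 0.0622), PM replicate 1 (−1.27, adjusted p = 0.0751) or PM replicate 2 (−1.06, adjusted p = 0.0593). With library totals alone as the scale, D17 stood at −0.47 with an edgeR adjusted p of 0.352. The summed root markers were also lower in PM, as given above, and their part in the D17 difference was not tested.

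D10 encodes CCD8, the dioxygenase that forms carlactone from the product of D17. It had 4, 2 and 2 counts in AM replicates 1, 2 and 3, and 2, 0 and 0 in PM replicates 1, 2 and 3. A count of 0 allows up to 3 counts, which equal 0.0548 to 0.173 CPM depending on the library, and 5 of the 6 D10 values were within 3 counts. The pooled counts of 8 and 2 give a ratio of AM over PM of 4.45 with a 95% exact counting interval of 0.889 to 43.0, which covers counting error only. No difference in D10 was detected at this depth.

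The receptor D14 had large counts and overlapping groups. D14, an alpha/beta hydrolase that both binds and cleaves strigolactones, was at 224, 322 and 220 CPM in AM replicates 1, 2 and 3. In PM replicates 1, 2 and 3 it was at 313, 229 and 413 CPM. The lowest PM library lay between the AM libraries, and PM replicate 3 was the highest of all 6. The log2 fold change was 0.32 (SE 0.25, 95% interval −0.26 to 0.89; edgeR adjusted p = 0.316). The interval leaves room for changes from a small decrease to a rise of 0.89, and the estimate ran from 0.09 without PM replicate 3 to 0.52 without AM replicate 2.

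D14L, the karrikin receptor gene, was close to the limit of detection in these libraries. It had 2, 7 and 4 counts in AM replicates 1, 2 and 3, and 0, 0 and 2 in PM replicates 1, 2 and 3. These are 0.115 to 0.162 CPM in AM and 0.0365 CPM in PM replicate 3. The counts of 0 in PM replicates 1 and 2 allow up to 0.107 and 0.173 CPM. The limit of PM replicate 2 reaches into the AM range, and that of PM replicate 1 lies just under it. The pooled counts of 13 and 2 correspond to a ratio of AM over PM of 7.24, with a 95% exact counting interval of 1.64 to 66.1 that holds counting error only and no spread between samples. Tested without a filter on low counts, D14L did not pass (edgeR adjusted p = 0.0803), nor did D10 (edgeR adjusted p = 0.277).

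D3, the F-box gene that both receptors share, was not called. Its levels were 64.3, 63.0 and 47.6 CPM in AM replicates 1, 2 and 3, and 59.6, 54.0 and 72.5 CPM in PM replicates 1, 2 and 3. The highest and the lowest value belonged to PM replicate 3 and AM replicate 3, and the others lay between 54.0 and 64.3 CPM. The log2 fold change was 0.09 (SE 0.18, 95% interval −0.33 to 0.51; edgeR adjusted p = 0.694). It changed sign, to −0.03, without AM replicate 3 and likewise without PM replicate 3. A change of 2-fold in either direction lies outside this interval on the TMM scale.

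Transcripts of D53 were lower in PM. D53 is the repressor whose protein strigolactones remove, and that protein was not measured here. D53 encodes a nuclear protein related to ClpB chaperones that binds TOPLESS-type corepressors. Its levels were 35.3, 33.5 and 51.8 CPM in AM replicates 1, 2 and 3, and 26.5, 25.9 and 25.0 CPM in PM replicates 1, 2 and 3. The PM libraries lay within a narrow band under all AM libraries, and AM replicate 3 stood apart from the other 2 AM libraries. The means were 40.2 ± 10.1 and 25.8 ± 0.754 CPM (SD, n = 3), a log2 fold change of −0.64 (SE 0.19, 95% interval −1.09 to −0.20; edgeR adjusted p = 0.0209). Without AM replicate 3 the change was −0.41 (edgeR adjusted p = 0.0395). The call was lost without PM replicate 1, 2 or 3, at edgeR adjusted p of 0.066, 0.0514 and 0.0574, although the estimate stayed between −0.65 and −0.62. With library totals alone D53 stood at 0.18 and was not called.

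D53 has a close copy on chromosome 12, D53L (LOC_Os12g01360), in a stretch that chromosomes 11 and 12 share by duplication. Reads aligned to more than 1 place were not counted, so the split of counts between D53 and D53L is uncertain. D53L was at 36.5, 32.0 and 40.8 CPM in AM replicates 1, 2 and 3, and 27.2, 27.5 and 25.5 CPM in PM replicates 1, 2 and 3. It fell by 0.45 on the log2 scale (SE 0.15, edgeR adjusted p = 0.0347), and stood at 0.38 with library totals alone. Its call was lost without AM replicate 1 or 3 or any PM library, where the log2 change lay between −0.46 and −0.36 and the edgeR adjusted p between 0.0673 and 0.108. It was also lost with the replicate block (−0.44, adjusted p = 0.105), with no filter (−0.42, adjusted p = 0.0753) and with DESeq2 (−0.44, adjusted p = 0.0501). The ratio of D53 to D53L counts was 0.967, 1.05 and 1.27 in AM replicates 1, 2 and 3, and 0.974, 0.941 and 0.981 in PM replicates 1, 2 and 3. In AM replicate 3 the balance thus leaned to D53, and elsewhere the loci had nearly equal counts. With both loci summed as 1 feature the log2 fold change was −0.55 (edgeR adjusted p = 0.023). Reads that align to both loci are missing from this sum as well. Over all genes, records without a unique alignment made up 45.1% to 56.1% in AM and 39.1% to 47.9% in PM.

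Fold changes here depend on the scale. By library totals alone the median of all tested loci was 0.84 log2 units higher in PM. On that scale 68.0% of loci were called, 54.5% higher and 13.5% lower. D14 (1.18) and D3 (0.95) then passed as higher, with edgeR adjusted p of 0.00124 and 0.00193, and 0 members were lower. A change of scale moves all loci by nearly the same amount, so it cannot alter their order. D14 and D3 lay above the median locus and D53 and D17 below it.

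**Figure D2:**
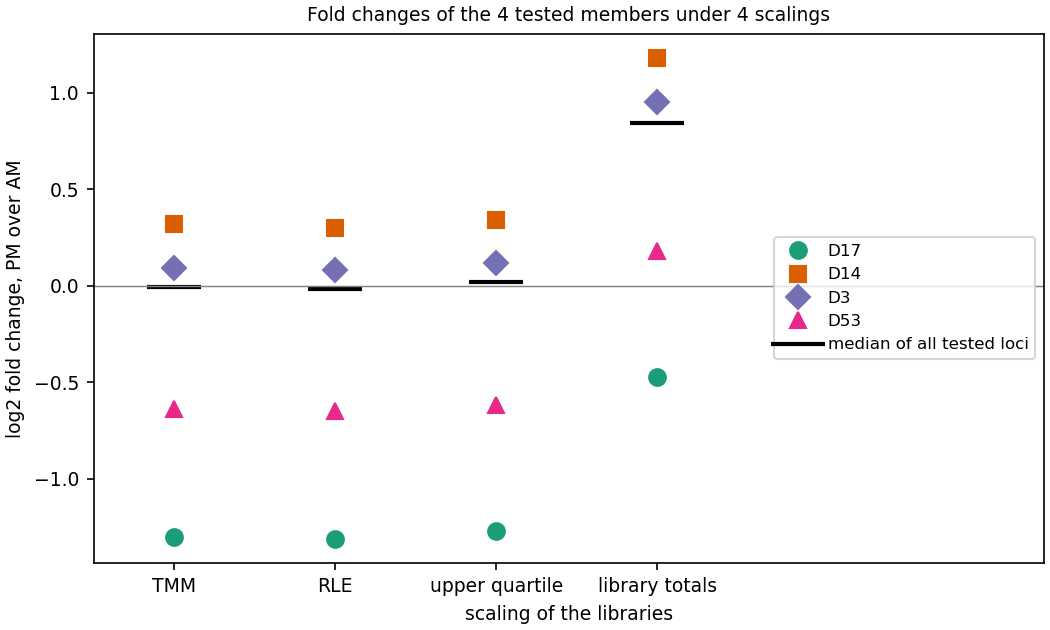
Log2 fold change of PM over AM for the 4 tested members under 4 scalings of the libraries, with the median of all tested loci as a black bar. The first 3 scalings give nearly the same values; with library totals the median moves to 0.84 and all 4 genes move up with it, D53 to 0.18 and D17 to −0.47.

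Ratios between 2 genes of the same library do not depend on any scale, so the 6 pairs among the 4 tested genes were compared as raw count ratios. For D17 over D14 the ratios were 0.00874, 0.00876 and 0.0173 in AM replicates 1, 2 and 3, and 0.00364, 0.00302 and 0.00385 in PM replicates 1, 2 and 3. All PM ratios were lower than any AM ratio, with a log2 difference of −1.66. D17 over D3 gave −1.45, again with no overlap. D3 over D53 was 1.82, 1.88 and 0.918 in AM replicates 1, 2 and 3, and 2.25, 2.08 and 2.90 in PM replicates 1, 2 and 3, a log2 difference of 0.71 with no overlap. D14 over D53 differed by 0.91, D17 over D53 by −0.74 and D14 over D3 by 0.21, each with overlapping groups. In an exact two-sided permutation test 3 samples against 3 cannot go below 0.1, and the 3 ratios without overlap reached that value (0.2 after Benjamini-Hochberg adjustment over the 6 pairs). The other 3 had exact permutation p of 0.2 to 0.4, and none of the 6 can pass 0.05 in this design. The ratios reuse the counts behind the calls and lend them no separate support. How often pairs of other loci lack overlap was not computed, and 64.1% of single tested loci had no overlap.

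**Figure D3:**
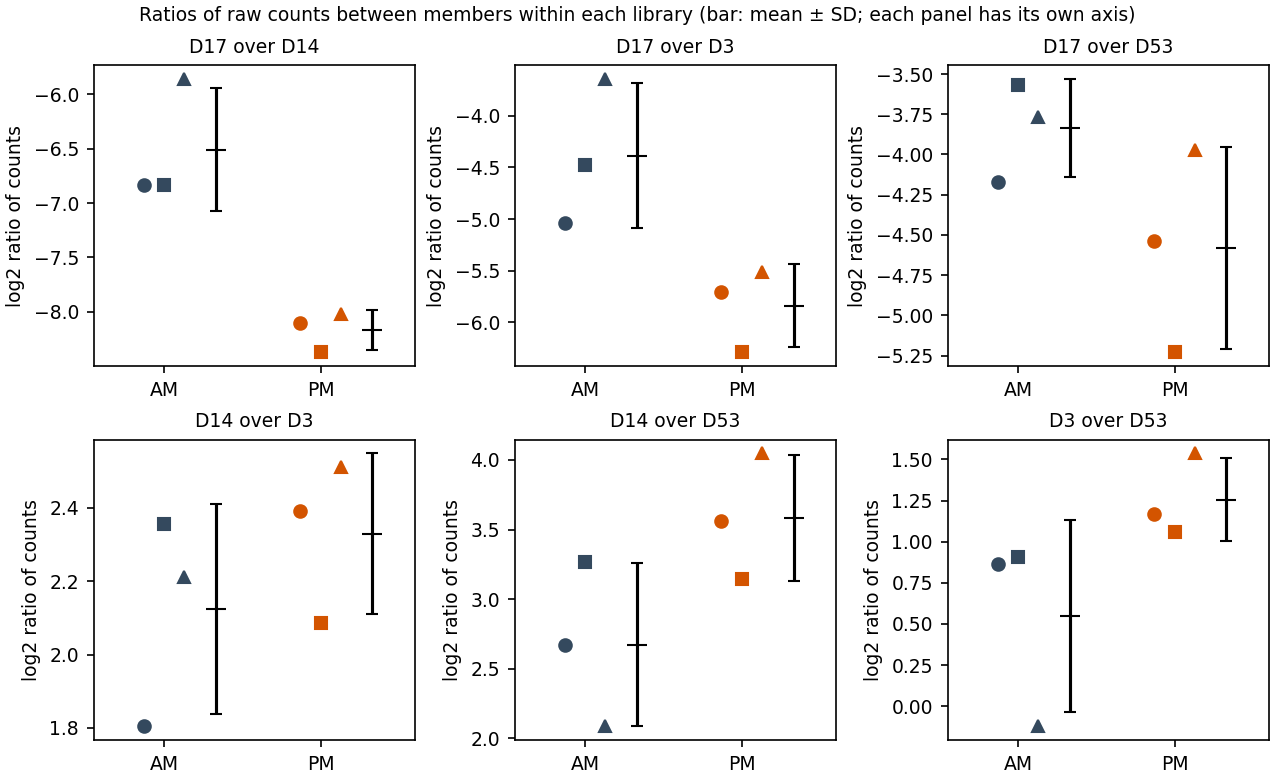
Log2 ratio of raw counts between each pair of tested members in every library; circles, squares and triangles are replicates 1, 2 and 3, bars give the mean ± SD, and each panel has its own axis, which does not start at 0. The PM libraries lie apart from the AM libraries for D17 over D14, D17 over D3 and D3 over D53, and mix with them in the other 3 panels.

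Other genes of the pathway were taken from a list of 21 loci, which was drawn up for later enzymes of strigolactone synthesis, carotenoid cleavage relatives, regulators, receptor relatives, repressors, corepressors and targets. Of these, 13 could be tested, and 3 were higher, 6 lower and 4 not called, with a median log2 fold change of −0.16. Calls in 9 of 13 loci stand beside 55.9% of all tested loci. Scaled by library totals, the split became 7 higher and 3 lower, and 3 were lower without AM replicate 3, PM replicate 1 or PM replicate 2. Names of 7 of the 21 could be matched by symbol and chromosome in the RefSeq gene table. The other 14 are given by count, of which 7 were tested, with 1 higher, 4 lower and 2 not called, and 4 had no count in any library.

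The target CKX9 (LOC_Os05g31040) had the widest difference of the tested members and pathway genes. CKX9 encodes a cytokinin oxidase, and in rice its transcription is raised by strigolactone through loss of the D53 protein. A relation of CKX9 to D53 was not tested here. CKX9 was at 28.4, 28.2 and 34.6 CPM in AM replicates 1, 2 and 3. In PM replicates 1, 2 and 3 it was at 0.925, 1.78 and 1.59 CPM. The groups were far apart and close within themselves. CKX9 fell by 4.41 on the log2 scale (SE 0.27, 95% interval −5.03 to −3.80; edgeR adjusted p = 5.32e-06), and stood at −3.58 with library totals alone. Its change was larger in size than that of 96.4% of tested loci, while D17 exceeded 65.7%, D53 40.5%, D14 21.7% and D3 6.59%.

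IPA1 (LOC_Os08g39890), an SPL transcription factor gene whose product D53 restrains in rice, had 1, 1 and 3 counts in AM replicates 1, 2 and 3, and 6, 1 and 5 in PM replicates 1, 2 and 3. These were too few to test, and the ratio of AM over PM was 0.464 with a 95% exact counting interval of 0.128 to 1.41.

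MADS57 (LOC_Os02g49840), a MADS-box factor that represses D14 in rice, rose in PM. D14 itself was not called, and a relation between the 2 genes was not tested. Its levels were 2.37, 1.78 and 2.82 CPM in AM replicates 1, 2 and 3, and 5.27, 7.59 and 6.41 CPM in PM replicates 1, 2 and 3. All PM libraries were higher than any AM library, and the log2 fold change was 1.47 (SE 0.28; edgeR adjusted p = 0.00209), or 2.29 with library totals alone.

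The corepressor gene TPR3 (LOC_Os03g14980), of the TOPLESS-related family that D53-type repressors recruit, rose as well. It was at 276, 214 and 279 CPM in AM replicates 1, 2 and 3, and at 470, 499 and 357 CPM in PM replicates 1, 2 and 3, with no overlap. Its log2 fold change was 0.79 (SE 0.20, edgeR adjusted p = 0.009), and 1.62 with library totals alone. TPR1 (LOC_Os01g15020) of the same family stood at 0.54 (SE 0.24, edgeR adjusted p = 0.0813) and passed when AM replicate 3 was left out (0.82, edgeR adjusted p = 0.00717) or totals set the scale (1.36).

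SMAX1 (LOC_Os08g15230), the karrikin counterpart of D53 that D14L and D3 act on, was not called. Its levels were 82.3, 87.9 and 84.8 CPM in AM replicates 1, 2 and 3, and 78.4, 70.1 and 79.1 CPM in PM replicates 1, 2 and 3. The PM libraries all lay under the AM libraries, by a small margin, and the log2 fold change was −0.16 (SE 0.14, 95% interval −0.48 to 0.15; edgeR adjusted p = 0.343). With library totals alone it stood at 0.68 and passed as higher.

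**Figure D4:**
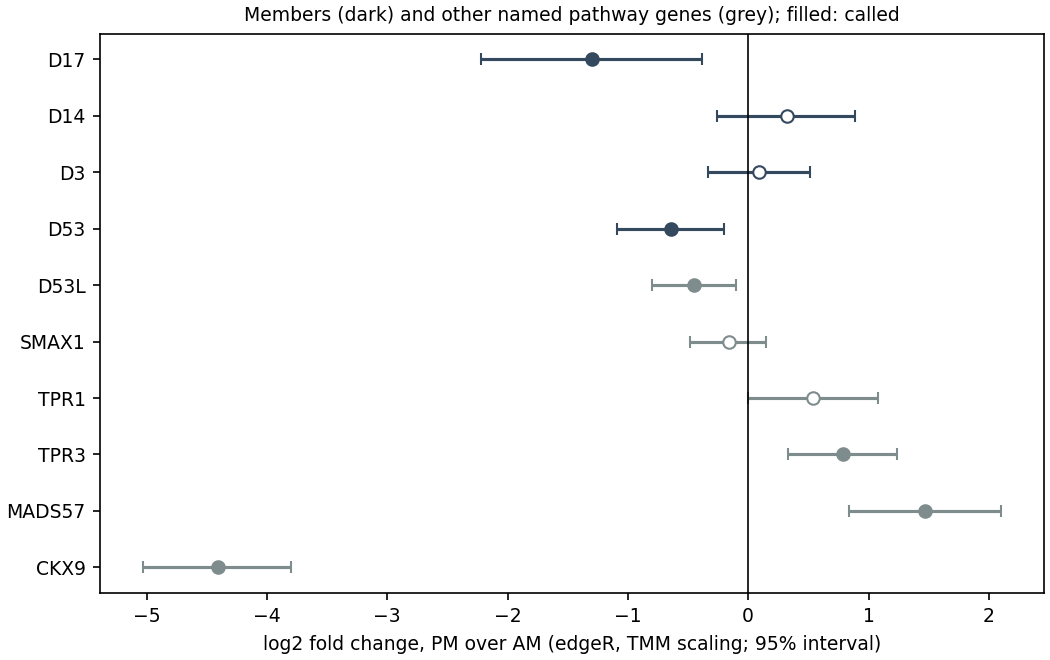
Log2 fold change of PM over AM with its 95% interval on the TMM scale for the 4 tested members (dark) and 6 other pathway genes with a matched name (grey); filled symbols were called. D17, D53, D53L and CKX9 lie to the left of 0, TPR3 and MADS57 to the right, and the intervals of D14, D3 and SMAX1 span 0.

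Profiles over the 6 libraries were compared by the Euclidean distance of log2 CPM, each gene centred on its own mean, among 29 other tested genes of the member, pathway and clock lists. D14 was closest to D3, at a distance of 0.57, and then to LOC_Os02g47510 of the pathway list (0.62). D3 was closest to SMAX1 and to LOC_Os02g47510, both at 0.52. D53 was closest to LOC_Os08g06480, a pathway-list locus without a matched name, and to D53L, the copy of D53, both at 0.36. D17 was closest to LOC_Os02g12890 (0.89) and LOC_Os06g36920 (1.07), both of the pathway list. The distance contains the difference between AM and PM, so genes picked as near D17 are bound to differ in much the same way. Those 2 loci were called lower, at −1.76 (SE 0.36) and −1.48 (SE 0.54), with edgeR adjusted p of 0.00322 and 0.0435. The second was not called with library totals alone (−0.62) or with upper-quartile factors (−1.45, edgeR adjusted p = 0.0525). Nor was it called without AM replicate 2 or 3 or PM replicate 1 or 2. The dawn clock gene LHY, at a log2 fold change of −9.65, was the farthest from D14, D3 and D53, at distances of 12.4, 12.1 and 11.2. These distances are descriptions of 6 libraries that share depth and scaling, and they lend the calls no separate support.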

How the data were processed

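Each of 6 deposited tables gives unnormalised read counts by MSU locus for 1 library. The submitters' processing notes name HTSeq 0.6.1, Trimmomatic 0.33 and STAR as the tools of the authors. Total RNA (2 µg per sample) went into a directional kit, per the labels' protocols. No source used here states the genome build, the annotation or the strand setting, so overlapping and antisense genes cannot be separated, and no coordinates or sequences are given. The 5 summary lines, 45.6% to 59.2% of records, stayed out of library sizes and tests.

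The 2 groups were compared with edgeR 4.0.16 (quasi-likelihood test, R 4.3.3) with TMM factors and filterByExpr (minimum count 10), Benjamini-Hochberg adjusted over 20548 loci at 0.05, and checked on simulated data. SEs come from the coefficient and its F statistic; log2 CPM used a prior count of 2. Replicates differed beyond sampling noise in all pairs (chi-square per degree of freedom 19.9 to 142). Members and lists were chosen with earlier results of these data known. Named are all members, pathway genes with a matched name, and the 2 nearest profiles per tested member. RefSeq names (assembly ASM3414082v1, no MSU identifiers) matched 4 of 7 members and 7 of 21 pathway loci by symbol and chromosome; the other members carry the names given with the rule. Alternatives were RLE and upper-quartile factors, library totals, dropping the filter, a filter at a mean of 1 CPM, DESeq2 1.42.0, limma-voom 3.58.1, a replicate block, thinning to the smallest library, D53 summed with its copy, and leaving out each library.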

Additional observations from a re-analysis of the deposited data

How the results depend on the processing

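Library totals alone, in place of TMM, moved most results: D14 to 1.18 and D3 to 0.95, both then called, D17 to −0.47 and D53 to 0.18, neither called, with 2 members higher and 0 lower, and 7 pathway genes higher and 3 lower. D53L (0.38), SMAX1 (0.68), LOC_Os02g47510 (0.73) and LOC_Os08g06480 (0.35) changed sign on that scale, and LOC_Os02g47510 also without AM replicate 2 (range −0.32 to 0.06 with 1 library left out). The cause was not tested. With 1 library left out, D17 ran from −1.63 to −1.04, D53 from −0.76 to −0.41, D14 from 0.09 to 0.52 and D3 from −0.03 to 0.19; the count of lower members ran from 0 to 2, that of higher members stayed at 0, and pathway genes numbered 2 to 3 higher and 3 to 5 lower. Calls over all loci ran from 9668 to 13965 over all settings, against 11493. RLE and upper-quartile factors, both other filters, DESeq2, limma-voom and thinning kept 2 members lower and 0 higher. Same-numbered AM and PM libraries did not deviate together (correlations across loci of −0.058, −0.273 and 0.102), and no AM library except replicate 3 correlated best with its own number, so the numbers were not taken to pair samples. With the replicate block D17 stood at −1.33, D53 at −0.61 (edgeR adjusted p = 0.0492), D14 at 0.30 and D3 at 0.09, with 2 pathway genes higher and 4 lower. D10 and D14L had a tested value only without a filter or with DESeq2 (adjusted p = 0.372 and 0.175). D10, D14L and IPA1 had too few counts for the filter.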
